A study of Mus musculus with 9 samples.

Results

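The 61 genes described here are the members of the interferon, JAK-STAT and antigen presentation pathways that were present in a table of gene expression from C2C12 myotubes. They were taken by symbol: every gene of the table whose symbol starts with Ifi, Ifnar, Ifngr, Irf plus a digit, Stat plus a digit, Jak plus a digit, Socs, Gbp, Oas, Isg, H2- with its hyphen, Tap1, Tap2 or Tapbp, together with B2m, Bst2 and Tyk2. The rule used names and no measured value, but it was chosen with earlier results of these data known. It found 61 of the 10716 genes listed. They comprise 4 interferon receptor chains, 3 JAK kinases, 5 STAT factors, 4 interferon regulatory factors, 3 IRF2-binding proteins, 6 SOCS inhibitors, 13 interferon-induced effectors, 5 genes of the p200 family, 14 class I genes with B2m among them, 3 peptide-loading genes and 1 class II gene, H2-DMa. Roles were given by symbol alone. The effectors therefore include Isg20l2, named as a relative of Isg20, and the class I genes include H2-T11-ps, named as a pseudogene. No gene whose symbol starts with Gbp or Oas was in the table, and Tap1, Isg15, Jak3, Stat4, Stat6 and Socs1 were not in it either.

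Interferons bind receptor pairs (Ifnar1 with Ifnar2, or Ifngr1 with Ifngr2) whose JAK kinases phosphorylate STAT factors. STAT dimers, or STAT complexes joined by Irf9, then switch on antiviral effectors and the genes that load peptides onto class I molecules, while SOCS proteins feed back on the kinases. Skeletal muscle fibres show little class I protein at rest and more of it in inflammatory myopathy, and glucocorticoids are known to restrain interferon and cytokine signalling in immune cells.

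RNA was sequenced from C2C12 myotubes, the multinucleated cells formed when this mouse myoblast line differentiates. Of the 9 libraries, 3 came from myotubes that received both 50 µM dexamethasone and 10 µM THSG, 3 from myotubes with 50 µM dexamethasone, and 3 from vehicle myotubes, all exposed for 24 h. As a potent glucocorticoid, dexamethasone serves to model muscle atrophy in culture, and THSG, given in the labels as an abbreviation, commonly stands for tetrahydroxystilbene glucoside, a plant stilbene. No group received THSG without dexamethasone, no interferon was added in any group, all groups used the same cell line, and the labels do not say that replicates were separate cultures, so p-values measure the spread between these libraries.

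Values were taken to be FPKM, a level corrected for transcript length and library size. The deposited table is named as counts but holds fractional values, so the depth behind each value is unknown. Every listed value exceeded 1 FPKM in all 9 libraries, so a gene that fell under that level in any group is not analysed here. Within groups the libraries correlated at 0.991 to 0.994 over all genes on the log2 scale. The mitochondrial share of summed FPKM was 14% in dexamethasone replicate 3 and 10.5% to 12% in the other libraries. All 6 myotube markers were in the table, and their summed level ranged over 5464 to 5599 FPKM with dexamethasone plus THSG, 5020 to 5458 FPKM with dexamethasone and 4919 to 5535 FPKM with vehicle. Ckm, the muscle creatine kinase, had means of 93.7 FPKM with dexamethasone plus THSG, 90.6 FPKM with dexamethasone and 54.1 FPKM with vehicle, and was called higher in both comparisons, as was Mymk, the myoblast fusion protein myomaker, at 539 FPKM with dexamethasone plus THSG, 522 FPKM with dexamethasone and 437 FPKM with vehicle. Des, the intermediate filament desmin, was called lower with dexamethasone, while Myog, Acta1 and Myh3 were not called. None of 10 leukocyte and macrophage markers and none of 4 endothelial markers was in it. Of 5 markers of fibroblasts and undifferentiated reserve cells 4 were present, and their summed level ranged over 235.9 to 265.1 FPKM with dexamethasone plus THSG, 219.1 to 250.5 FPKM with dexamethasone and 221.2 to 245.6 FPKM with vehicle. Within that list Pdgfra and Ly6a rose and Col1a1 and Pax7 fell in both comparisons with vehicle. Vehicle replicate 2 had the lowest vehicle value for 33 of the 61 members (54.1%), against 33.9% of all genes. Without it, 22 members were called lower and 4 higher with dexamethasone plus THSG, and 21 lower and 5 higher with dexamethasone. Of all 10716 genes, 1496 were then lower and 1106 higher with dexamethasone plus THSG, and 1930 lower and 1196 higher with dexamethasone. The part of these markers and of that library in the results was not tested, and in bulk RNA fewer cells of a type and less RNA per cell cannot be told apart.

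Most interferon and antigen presentation genes that changed were lower with dexamethasone, with or without THSG, and a smaller number were higher. The p200 gene Ifi207 was 8.71 times its vehicle level with dexamethasone plus THSG and 8.93 times with dexamethasone, Irf2 was 2.34 and 2.37 times its vehicle level, and Irf1, Socs3, Tapbp, Ifitm3 and Ifi202b were reduced. These folds come from the fit to log2(FPKM + 0.1), and Ifi207 was near the lowest listed level with vehicle. With dexamethasone plus THSG against vehicle, 21 of 61 members were called lower (34.4%) where 17% of all genes were, and 6 were called higher (9.84%) where 12.1% were. With dexamethasone against vehicle, 22 members were called lower (36.1%) where 20.9% of all genes were, and 5 were called higher (8.2%) where 12.7% were. A call is an adjusted p under 0.05 in limma over all 10716 genes, in either direction 29.1% of genes for dexamethasone plus THSG and 33.6% for dexamethasone. The median log2 fold change of the members was -0.18 with dexamethasone plus THSG and -0.20 with dexamethasone, against -0.04 and -0.05 over all genes. Libraries of the groups did not overlap for 33 members with dexamethasone plus THSG (54.1%, against 43.1% of all genes) and 36 members with dexamethasone (59%, against 45.9%). Both comparisons share the vehicle libraries. They called 25 members in the same direction, dexamethasone against vehicle also called H2-D1 and Irf2bp2, dexamethasone plus THSG against vehicle also called Stat5b and H2-T9, and 32 members were called in neither.

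Where other scalings are used, fewer of all called genes are lower. Of the genes called with dexamethasone, 37.8% were higher on the deposited scale and 49.6% after median-ratio scaling or 50.5% after quantile normalization. With dexamethasone plus THSG these shares were 41.5%, 50.9% and 49.8%. Among the 61 members, 20 were called lower with dexamethasone plus THSG after median-ratio scaling and 19 after quantile normalization, and 19 were called lower with dexamethasone after either. Of all 10716 genes, 1505 and 1537 were lower with dexamethasone plus THSG under these 2 scalings, and 1766 and 1751 with dexamethasone. Members called higher numbered 6 and 6 with dexamethasone plus THSG, and 6 and 7 with dexamethasone. Genes called higher numbered 1563 and 1522, and 1739 and 1784. The median over all genes moved by less than 0.1 on the log2 scale under each scaling.

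**Figure D1:**
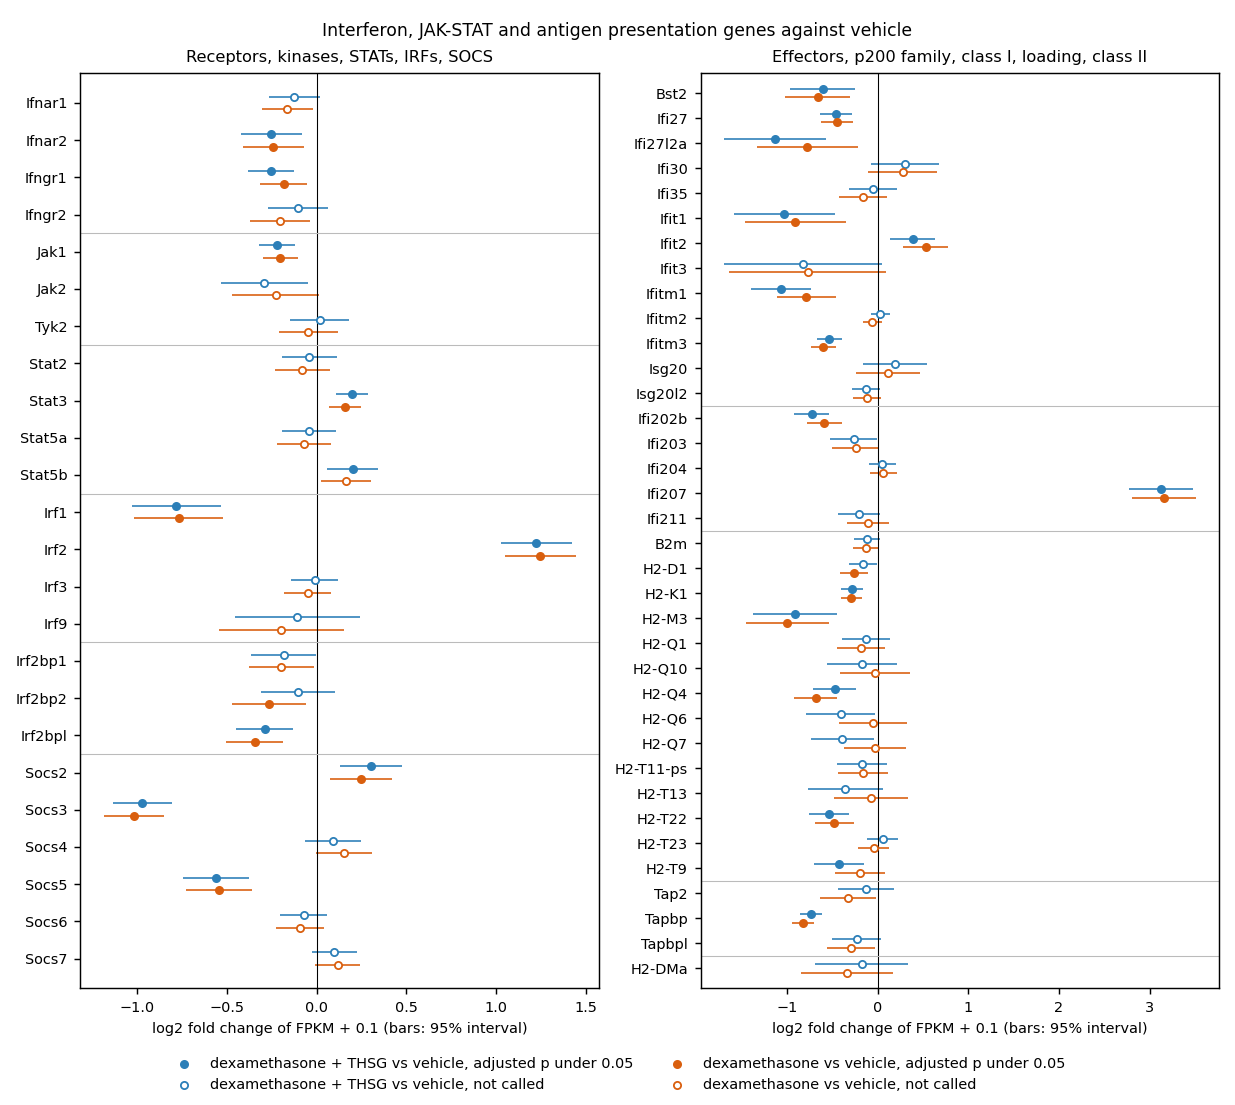
Log2 fold change of FPKM + 0.1 against vehicle for 60 of the 61 members, grouped by role, with 95% intervals (limma, n = 3 libraries per group). Blue marks dexamethasone plus THSG, orange marks dexamethasone, and filled symbols have an adjusted p under 0.05. The x axis of the right panel is wider because Ifi207 reached 3.12 with dexamethasone plus THSG and 3.16 with dexamethasone, and most other filled symbols lie left of 0.

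RefSeq promoter sequences (build GRCm38.p6) were matched for 47 of the 61 members, giving 57 promoters of 250 bases before to 50 bases after a start site. The core of the interferon-stimulated response element, GAAANNGAA, bound by IRF factors and by STAT complexes with IRF9, was on either strand of 14 of the 57 promoters (24.6%), against 8.56% of all 32851 RefSeq promoters and 6.6% of the 10593 promoters of genes in this table. The gamma-activated sequence TTCNNNGAA, bound by STAT dimers, was in 13 (22.8%), against 8.3% of all and 6.47% of those of the table. The glucocorticoid receptor core ACANNNTGT was in 1 (1.75%, Stat5b), against 6.85% of all and 3.86% of those of the table. Among promoters of members lower with dexamethasone 5 of 20 held the first motif and 7 of 20 the second, among those higher 2 of 5 held each, and among those not called 7 of 32 and 4 of 32. A match is a run of letters and not a shown binding site. The 7 promoters below were chosen as examples that hold a match. Irf1 and Ifit2 each have another promoter, not printed, that holds neither of the first 2 motifs. The promoters of Tapbp, H2-K1, Stat3, Jak1, Ifitm1 and H2-Q4, members with changes too, hold neither of the first 2 motifs. Each printed sequence gives the 250 bases before the start site on the gene's own strand, with matches to the first 2 motifs in capitals.
Irf1, chr11:53769764-53770013, plus strand: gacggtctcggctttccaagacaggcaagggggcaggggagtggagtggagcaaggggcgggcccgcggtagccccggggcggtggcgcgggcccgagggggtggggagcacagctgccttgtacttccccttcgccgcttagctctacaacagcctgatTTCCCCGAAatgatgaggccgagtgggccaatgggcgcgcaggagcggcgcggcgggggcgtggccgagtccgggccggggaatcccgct
Socs3, chr11:117969367-117969616, minus strand: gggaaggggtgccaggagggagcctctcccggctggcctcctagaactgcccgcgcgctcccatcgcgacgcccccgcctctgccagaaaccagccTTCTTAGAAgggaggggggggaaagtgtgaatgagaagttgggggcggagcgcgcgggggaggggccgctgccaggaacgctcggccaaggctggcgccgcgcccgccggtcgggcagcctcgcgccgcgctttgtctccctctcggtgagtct
Bst2, chr8:71537473-71537722, minus strand: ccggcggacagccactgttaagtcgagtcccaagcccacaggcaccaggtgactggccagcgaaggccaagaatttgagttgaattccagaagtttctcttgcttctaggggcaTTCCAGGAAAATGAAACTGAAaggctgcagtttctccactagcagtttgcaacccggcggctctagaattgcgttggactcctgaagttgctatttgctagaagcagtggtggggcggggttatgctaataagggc
Ifit1, chr19:34640639-34640888, plus strand: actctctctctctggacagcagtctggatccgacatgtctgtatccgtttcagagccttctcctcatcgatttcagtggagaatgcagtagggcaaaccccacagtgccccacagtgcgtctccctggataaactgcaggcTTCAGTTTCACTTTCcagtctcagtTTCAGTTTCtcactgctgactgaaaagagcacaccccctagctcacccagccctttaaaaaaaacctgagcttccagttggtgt
Ifi207, chr1:173741810-173742059, minus strand: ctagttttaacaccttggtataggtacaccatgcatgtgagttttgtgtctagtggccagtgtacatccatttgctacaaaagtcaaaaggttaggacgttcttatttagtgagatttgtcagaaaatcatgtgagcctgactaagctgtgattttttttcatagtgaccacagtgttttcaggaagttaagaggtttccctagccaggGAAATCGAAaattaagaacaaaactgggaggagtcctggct
Irf2, chr8:46739495-46739744, plus strand: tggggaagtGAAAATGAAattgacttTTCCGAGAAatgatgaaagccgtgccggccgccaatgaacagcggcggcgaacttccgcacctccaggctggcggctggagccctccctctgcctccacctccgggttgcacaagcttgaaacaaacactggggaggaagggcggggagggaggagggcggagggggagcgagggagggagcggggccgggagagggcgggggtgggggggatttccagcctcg
Ifit2, chr19:34550444-34550693, plus strand: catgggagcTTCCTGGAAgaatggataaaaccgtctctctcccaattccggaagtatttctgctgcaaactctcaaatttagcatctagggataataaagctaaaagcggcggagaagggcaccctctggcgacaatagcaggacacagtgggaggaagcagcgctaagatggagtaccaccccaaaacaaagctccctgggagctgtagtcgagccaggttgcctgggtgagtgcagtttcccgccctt
In the Irf1 and Socs3 promoters the capitals are a gamma-activated sequence, beginning 90 and 154 bases before the start site. In the Bst2 promoter a gamma-activated sequence at 136 bases overlaps a response element core at 130 bases, which in turn overlaps a core at 124 bases. The Ifit1 promoter holds 3 response element cores on the opposite strand, at 109, 103 and 84 bases, the first pair overlapping. The Ifi207 promoter holds a response element core at 41 bases, the Irf2 promoter a core at 241 and a gamma-activated sequence at 224 bases, and the Ifit2 promoter a gamma-activated sequence at 241 bases. Members that rose and members that fell are both among those with a match.

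At the receptor step, Ifnar2 and Ifngr1 were modestly lower in both comparisons and the partner chains did not pass the test. Ifnar2, a chain of the type I interferon receptor, measured 13.6, 16.5 and 16.1 FPKM with dexamethasone plus THSG, 15.7, 15.1 and 15.6 FPKM with dexamethasone, and 19.5, 17.96 and 17.5 FPKM with vehicle. Every treated library lay below every vehicle library. Ifnar2 fell, by limma on log2(FPKM + 0.1), where ± is the SE and each group has n = 3, with log2 fold changes against vehicle of -0.25 ± 0.08 with dexamethasone plus THSG (adjusted p = 0.0299) and -0.24 ± 0.08 with dexamethasone (adjusted p = 0.0318). That call was lost with dexamethasone plus THSG without vehicle replicate 1 (adjusted p = 0.106), vehicle replicate 2 (0.058) or dexamethasone plus THSG replicate 1 (0.102), and with dexamethasone without vehicle replicate 1 (0.115), vehicle replicate 2 (0.0583) or any single dexamethasone library (0.0599 to 0.0875). Median-ratio scaling and quantile normalization also ended the Ifnar2 call, at 0.059 and 0.0536 with dexamethasone plus THSG and 0.0814 and 0.07 with dexamethasone, where equal sums gave 0.0538. Ifngr1, the ligand-binding chain for interferon gamma, measured 15.2, 15.6 and 14.4 FPKM with dexamethasone plus THSG, 15.5, 16.7 and 15.2 FPKM with dexamethasone, and 17.8, 18.4 and 17.7 FPKM with vehicle. Ifngr1 fell, again with every treated library under vehicle and with log2 fold changes against vehicle of -0.25 ± 0.06 with dexamethasone plus THSG (adjusted p = 0.00687) and -0.18 ± 0.06 with dexamethasone (adjusted p = 0.0327). For dexamethasone the Ifngr1 call was lost without any single vehicle library (0.0597 to 0.0975), without dexamethasone replicate 1 (0.0885) or replicate 3 (0.101), and after median-ratio scaling, equal sums or quantile normalization (0.0793 to 0.106). Ifnar1 measured 15.6, 14.7 and 17.1 FPKM with dexamethasone plus THSG, 15.3, 14.8 and 15.96 FPKM with dexamethasone, and 17.1, 17.3 and 17.2 FPKM with vehicle. All treated libraries were below vehicle, although dexamethasone plus THSG replicate 3 was under its lowest library by less than the rounding. Ifngr2 measured 9.33, 9.29 and 10.2 FPKM with dexamethasone plus THSG, 9.19, 9.36 and 8.3 FPKM with dexamethasone, and 9.75, 10.7 and 10.6 FPKM with vehicle. Neither chain was called, with log2 fold changes of -0.12 with dexamethasone plus THSG and -0.16 with dexamethasone for Ifnar1 and -0.11 with dexamethasone plus THSG and -0.20 with dexamethasone for Ifngr2.

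Among the kinases, Jak1 was slightly lower. Jak1, which serves both interferon receptors and the Il6st cytokine receptors, measured 28.4, 27.98 and 27.2 FPKM with dexamethasone plus THSG, 28.1, 28 and 28.6 FPKM with dexamethasone, and 32.7, 31.5 and 33.2 FPKM with vehicle. All treated libraries were below the vehicle range. Jak1 fell in both comparisons, with log2 fold changes against vehicle of -0.22 ± 0.05 with dexamethasone plus THSG (adjusted p = 0.00315) and -0.20 ± 0.05 with dexamethasone (adjusted p = 0.00491). Jak2, which pairs with Ifngr2 and the growth hormone receptor, measured 5.32, 6.19 and 6.802 FPKM with dexamethasone plus THSG, 6.66, 5.85 and 6.57 FPKM with dexamethasone, and 6.66, 7.92 and 7.86 FPKM with vehicle. Tyk2, the kinase bound to Ifnar1, measured 10.2, 11.2 and 11.9 FPKM with dexamethasone plus THSG, 11, 9.96 and 10.8 FPKM with dexamethasone, and 10.98, 10.6 and 11.3 FPKM with vehicle. Both overlapped vehicle and were not called, with adjusted p of 0.0691 (dexamethasone plus THSG) and 0.134 (dexamethasone) for Jak2 and of 0.887 and 0.669 for Tyk2. Without vehicle replicate 1 (0.0388) or dexamethasone plus THSG replicate 3 (0.04), Jak2 was called lower with dexamethasone plus THSG. After removal of GC and length trends, with or without a replicate block, Jak2 was called lower in both comparisons. The lowest adjusted p was 0.0296 with dexamethasone plus THSG and 0.0286 with dexamethasone.

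Among the STAT factors, Stat3 was slightly higher in both comparisons, and Stat5b passed the threshold only with dexamethasone plus THSG against vehicle. Stat2 and Stat5a were not called. Stat3, which transmits signals from the Il6st family of cytokines, measured 62.02, 61.99 and 60.01 FPKM with dexamethasone plus THSG, 59.8, 59.8 and 59.5 FPKM with dexamethasone, and 55.01, 51.9 and 53.6 FPKM with vehicle. All treated libraries were above vehicle and Stat3 rose, with log2 fold changes against vehicle of 0.20 ± 0.04 with dexamethasone plus THSG (adjusted p = 0.00314) and 0.16 ± 0.04 with dexamethasone (adjusted p = 0.0102). Stat5b, a growth hormone effector, measured 14.9, 16.7 and 15.6 FPKM with dexamethasone plus THSG, 15.4, 15.7 and 14.7 FPKM with dexamethasone, and 13.8, 13.1 and 14.03 FPKM with vehicle. Its groups did not overlap vehicle, with log2 fold changes against vehicle of 0.20 ± 0.06 with dexamethasone plus THSG (adjusted p = 0.0345) and 0.16 ± 0.06 with dexamethasone (adjusted p = 0.0702). The Stat5b call was lost without any single vehicle library (0.0511 to 0.115) and without dexamethasone plus THSG replicate 2 (0.135) or replicate 3 (0.0717). Equal sums, fitting the compared groups alone and a replicate block ended it too. With dexamethasone, Stat5b was called higher after median-ratio scaling, quantile normalization or removal of GC and length trends (lowest adjusted p = 0.0267). Between dexamethasone plus THSG and dexamethasone, Stat5b had 0.04 (adjusted p = 0.913). Stat2, which joins Irf9 in the type I complex, measured 13.5, 12.2 and 12.4 FPKM with dexamethasone plus THSG, 12.3, 11.8 and 12.8 FPKM with dexamethasone, and 13.3, 12.2 and 13.7 FPKM with vehicle. Those ranges overlap, and Stat2 had log2 fold changes of -0.04 with dexamethasone plus THSG and -0.08 with dexamethasone. Stat5a, the close relative of Stat5b, had -0.04 with dexamethasone plus THSG and -0.07 with dexamethasone.

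The regulatory factors Irf1 and Irf2 moved in opposite directions. Irf1, a transcriptional activator of class I and effector genes, measured 7.95, 6.95 and 8.72 FPKM with dexamethasone plus THSG, 8.02, 6.75 and 9.15 FPKM with dexamethasone, and 13.1, 14.2 and 13.4 FPKM with vehicle. No treated library came near the vehicle range. Irf1 fell, with log2 fold changes against vehicle of -0.78 ± 0.11 with dexamethasone plus THSG (adjusted p = 0.000255) and -0.77 ± 0.11 with dexamethasone (adjusted p = 0.000268). Irf2, which binds the same sites and is known mainly as an antagonist of Irf1, measured 16.7, 16.4 and 17.3 FPKM with dexamethasone plus THSG, 16.2, 17.4 and 17.6 FPKM with dexamethasone, and 6.15, 7.35 and 8.06 FPKM with vehicle. Its treated and vehicle libraries were likewise apart, in the other direction. Irf2 rose to 2.34 times its vehicle level with dexamethasone plus THSG and 2.37 times with dexamethasone, with log2 fold changes against vehicle of 1.22 ± 0.09 with dexamethasone plus THSG (adjusted p = 9.66e-07) and 1.25 ± 0.09 with dexamethasone (adjusted p = 8.13e-07). On this measure, taken to be length-scaled, Irf2 was above Irf1 in all 6 treated libraries, and Irf1 was above Irf2 in all 3 vehicle libraries. Irf9, the DNA-binding subunit of the type I complex, measured 5.92, 6.12 and 5.395 FPKM with dexamethasone plus THSG, 5.29, 4.898 and 6.28 FPKM with dexamethasone, and 6.89, 4.71 and 7.59 FPKM with vehicle. Vehicle replicate 2 was below all other libraries, the Irf9 groups overlapped, and the gene was not called (-0.11 with dexamethasone plus THSG and -0.20 with dexamethasone). Without vehicle replicate 2, Irf9 was called lower with dexamethasone (adjusted p = 0.0325, over a range of 0.0325 to 0.816 in its alternatives). Irf3, the factor that starts interferon production, had log2 fold changes of -0.01 with dexamethasone plus THSG and -0.05 with dexamethasone.

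Among the genes grouped by symbol as IRF2-binding proteins, Irf2bpl was lower in both comparisons. Irf2bpl measured 26.4, 28.3 and 28.2 FPKM with dexamethasone plus THSG, 28.01, 28.3 and 23.6 FPKM with dexamethasone, and 35.3, 31.8 and 34.4 FPKM with vehicle. Every vehicle library exceeded every treated library, with log2 fold changes against vehicle of -0.29 ± 0.07 with dexamethasone plus THSG (adjusted p = 0.0108) and -0.35 ± 0.07 with dexamethasone (adjusted p = 0.00338). Irf2bp2 measured 6.79, 7.79 and 7.34 FPKM with dexamethasone plus THSG, 7.16, 6.72 and 5.74 FPKM with dexamethasone, and 7.73, 8.01 and 7.82 FPKM with vehicle. With dexamethasone the libraries lay under vehicle, and with dexamethasone plus THSG they overlapped it, with log2 fold changes against vehicle of -0.10 ± 0.09 with dexamethasone plus THSG (adjusted p = 0.453) and -0.27 ± 0.09 with dexamethasone (adjusted p = 0.0492). The dexamethasone call of Irf2bp2 was at the threshold: it was lost without any single vehicle library (0.0884 to 0.119), without dexamethasone replicate 2 (0.0725) or 3 (0.169), and without dexamethasone plus THSG replicate 2 (0.0564) or 3 (0.0628). Median-ratio scaling (0.106), equal sums (0.0861) and quantile normalization (0.142) ended it too. Irf2bp1 was not called (-0.18 with dexamethasone plus THSG and -0.20 with dexamethasone), except with dexamethasone without dexamethasone replicate 3 (adjusted p = 0.041, over a range of 0.041 to 0.62).

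Among the SOCS inhibitors, Socs3 and Socs5 were lower and Socs2 was higher. Socs3, the feedback inhibitor of Il6st signalling and a Stat3 target, measured 7.33, 8.01 and 7.95 FPKM with dexamethasone plus THSG, 7.75, 7.82 and 6.96 FPKM with dexamethasone, and 15.8, 14.5 and 15.6 FPKM with vehicle. Treated and vehicle libraries were far apart. Socs3 fell, with log2 fold changes against vehicle of -0.97 ± 0.08 with dexamethasone plus THSG (adjusted p = 1.69e-06) and -1.02 ± 0.08 with dexamethasone (adjusted p = 1.05e-06). Socs5, an inhibitor studied in epidermal growth factor and interleukin 4 signalling, measured 12.97, 10.99 and 10.8 FPKM with dexamethasone plus THSG, 10.7, 12.5 and 11.98 FPKM with dexamethasone, and 16.5, 17.2 and 17.5 FPKM with vehicle. Socs5 fell without overlap, with log2 fold changes against vehicle of -0.56 ± 0.08 with dexamethasone plus THSG (adjusted p = 0.000325) and -0.54 ± 0.08 with dexamethasone (adjusted p = 0.000371). Socs2, which restrains growth hormone signalling, measured 34.4, 39.1 and 36.2 FPKM with dexamethasone plus THSG, 37.5, 32.5 and 35.6 FPKM with dexamethasone, and 26.7, 32.2 and 30.1 FPKM with vehicle. The lowest treated library was just above the highest vehicle library, with log2 fold changes against vehicle of 0.30 ± 0.08 with dexamethasone plus THSG (adjusted p = 0.0121) and 0.25 ± 0.08 with dexamethasone (adjusted p = 0.0295). The Socs2 call was lost with dexamethasone plus THSG without dexamethasone plus THSG replicate 2 (0.0544), and with dexamethasone without vehicle replicate 1 (0.114) or 3 (0.0523) or dexamethasone replicate 1 (0.106) or 3 (0.0772). Socs4, Socs6 and Socs7 were not called, at log2 fold changes of 0.09 with dexamethasone plus THSG and 0.15 with dexamethasone for Socs4, -0.07 with dexamethasone plus THSG and -0.09 with dexamethasone for Socs6 and 0.10 with dexamethasone plus THSG and 0.12 with dexamethasone for Socs7.

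**Figure D2:**
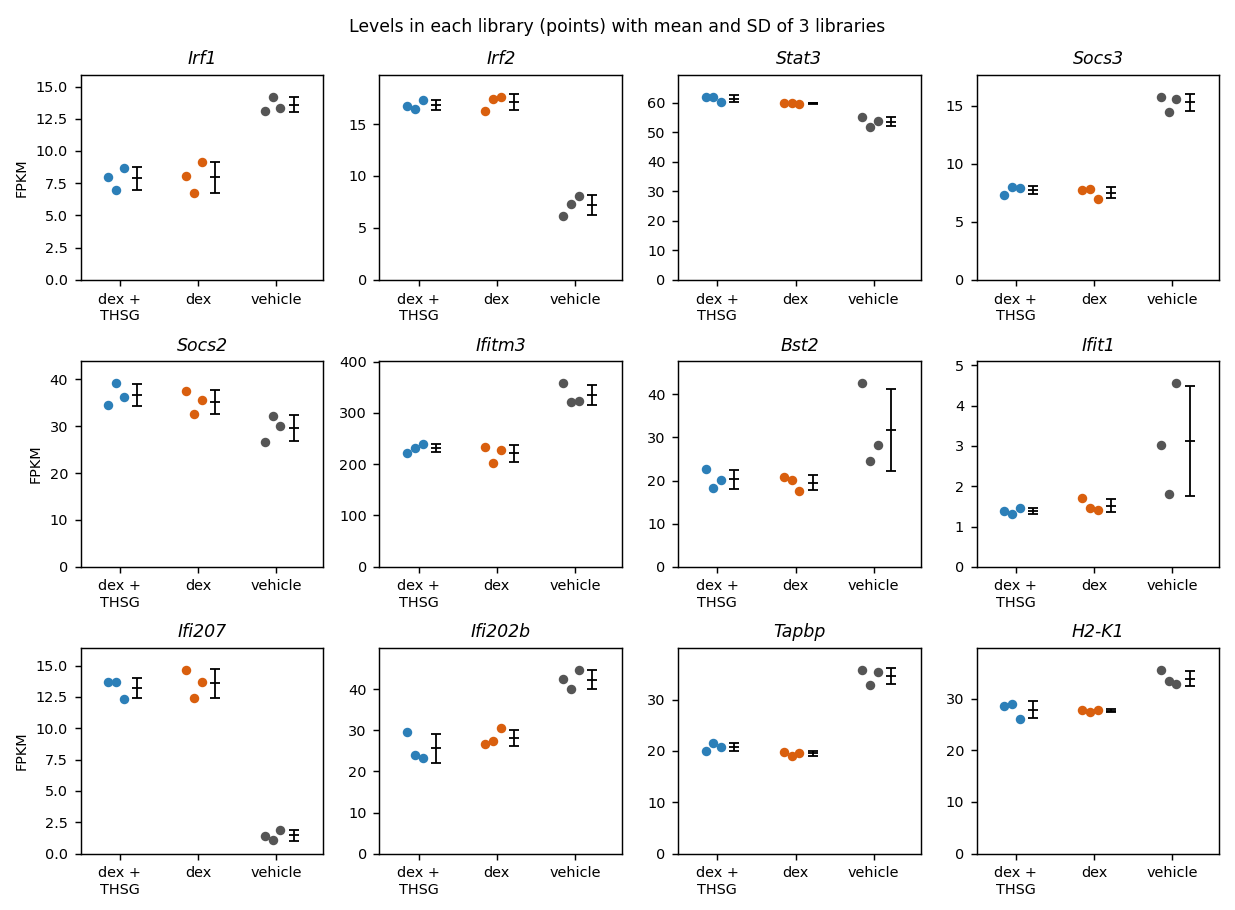
FPKM in each of the 9 libraries for 12 members, with 1 panel per gene, an axis starting at 0, and bars for the mean and SD of 3 libraries per group. Irf1, Socs3, Ifitm3, Bst2, Ifit1, Ifi202b, Tapbp and H2-K1 lie lower with dexamethasone plus THSG and with dexamethasone than with vehicle, while Irf2, Ifi207, Stat3 and Socs2 lie higher.

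The interferon-induced effectors were the role with the lowest medians among those of more than 3 genes. Of 13 measured, 6 were called lower and 1 higher in each comparison, where 17% of all genes were lower with dexamethasone plus THSG and 20.9% with dexamethasone, with a median log2 fold change of -0.46 with dexamethasone plus THSG and -0.45 with dexamethasone. Vehicle replicate 2 had the lowest vehicle value for 10 of these 13 genes (76.9%), against 33.9% of all genes. Without vehicle replicate 2 the count was 7 lower and 0 higher with dexamethasone plus THSG, and 7 lower and 1 higher with dexamethasone. Of all 10716 genes, 1496 were then lower with dexamethasone plus THSG and 1930 with dexamethasone. The effector call lost without that library was that of Ifit2 with dexamethasone plus THSG, whose adjusted p was then 0.0563.

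Ifitm3, a membrane protein that blocks viral fusion, measured 223, 231 and 239 FPKM with dexamethasone plus THSG, 233, 202 and 228 FPKM with dexamethasone, and 357, 322 and 324 FPKM with vehicle. All treated libraries were below all vehicle libraries. Ifitm3 fell, with log2 fold changes against vehicle of -0.53 ± 0.06 with dexamethasone plus THSG (adjusted p = 4.35e-05) and -0.60 ± 0.06 with dexamethasone (adjusted p = 1.54e-05). Its relative Ifitm1 measured 2.75, 2.52 and 3.49 FPKM with dexamethasone plus THSG, 3.51, 3.15 and 3.996 FPKM with dexamethasone, and 6.95, 5.25 and 6.44 FPKM with vehicle. Ifitm1 also fell without overlap, with log2 fold changes against vehicle of -1.07 ± 0.15 with dexamethasone plus THSG (adjusted p = 0.000203) and -0.79 ± 0.15 with dexamethasone (adjusted p = 0.00169). The neighbouring Ifitm2 had 0.03 with dexamethasone plus THSG and -0.06 with dexamethasone and was not called, although 42% of its annotated 75-base windows are shared with other genes, mostly pseudogene models, so its level is uncertain.

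Bst2, the tetherin that holds budding virus at the cell surface, measured 22.6, 18.3 and 20.1 FPKM with dexamethasone plus THSG, 20.8, 20.2 and 17.5 FPKM with dexamethasone, and 42.5, 24.5 and 28.3 FPKM with vehicle. Vehicle replicate 1 stood well above its companions, and all treated libraries were below the vehicle range. Bst2 fell, with log2 fold changes against vehicle of -0.61 ± 0.16 with dexamethasone plus THSG (adjusted p = 0.0154) and -0.66 ± 0.16 with dexamethasone (adjusted p = 0.00834). Without dexamethasone plus THSG replicate 2 the adjusted p for dexamethasone plus THSG was 0.0612. Ifi27, a small mitochondrial membrane protein, measured 61.8, 54.3 and 56.9 FPKM with dexamethasone plus THSG, 61.3, 54.1 and 59.2 FPKM with dexamethasone, and 90.6, 73.99 and 74.3 FPKM with vehicle. Ifi27 fell, with log2 fold changes against vehicle of -0.46 ± 0.08 with dexamethasone plus THSG (adjusted p = 0.00115) and -0.45 ± 0.08 with dexamethasone (adjusted p = 0.00128). Ifi27l2a, of the same family, measured 9.704, 5.904 and 10.8 FPKM with dexamethasone plus THSG, 8.94, 11.4 and 12.97 FPKM with dexamethasone, and 26.2, 13.2 and 19.4 FPKM with vehicle. Dexamethasone plus THSG replicate 2 was the lowest library and vehicle replicate 1 the highest. Ifi27l2a fell, with log2 fold changes against vehicle of -1.13 ± 0.26 with dexamethasone plus THSG (adjusted p = 0.00553) and -0.78 ± 0.26 with dexamethasone (adjusted p = 0.0354). With dexamethasone the Ifi27l2a call was lost without vehicle replicate 1 (0.14) or 3 (0.0794) or dexamethasone replicate 1 (0.121) or 2 (0.0688).

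The clustered genes Ifit1 and Ifit2 changed in opposite directions. Ifit1, which binds viral RNA caps that lack methylation, measured 1.39, 1.31 and 1.45 FPKM with dexamethasone plus THSG, 1.697, 1.45 and 1.403 FPKM with dexamethasone, and 3.01, 1.82 and 4.55 FPKM with vehicle. Vehicle values ranged widely, and all were above the treated ones. Ifit1 fell, with log2 fold changes against vehicle of -1.03 ± 0.25 with dexamethasone plus THSG (adjusted p = 0.00941) and -0.91 ± 0.25 with dexamethasone (adjusted p = 0.0165). Without vehicle replicate 3 (0.0531) or dexamethasone replicate 3 (0.0515) the dexamethasone call was lost. Ifit2, an antiviral partner of Ifit1, measured 5.35, 5.81 and 6.11 FPKM with dexamethasone plus THSG, 6.002, 5.64 and 7.598 FPKM with dexamethasone, and 4.28, 4.43 and 4.44 FPKM with vehicle. Every treated library was above every vehicle library. Ifit2 rose, with log2 fold changes against vehicle of 0.38 ± 0.11 with dexamethasone plus THSG (adjusted p = 0.0242) and 0.53 ± 0.11 with dexamethasone (adjusted p = 0.00369). For dexamethasone plus THSG the Ifit2 call was lost without any single vehicle library (0.051 to 0.0658) or without dexamethasone plus THSG replicate 2 (0.0664) or 3 (0.0834). Ifit3 measured 2.68, 2.33 and 1.57 FPKM with dexamethasone plus THSG, 1.65, 1.7 and 3.86 FPKM with dexamethasone, and 5.07, 1.97 and 5.74 FPKM with vehicle. Its groups overlapped through vehicle replicate 2 and it was not called (-0.82 with dexamethasone plus THSG and -0.77 with dexamethasone). Without vehicle replicate 2, Ifit3 was called lower in both comparisons, with adjusted p = 0.0162 for dexamethasone plus THSG and 0.0176 for dexamethasone, as it was with dexamethasone without dexamethasone replicate 3 (0.0442). Reads of Ifit3 and its copy Ifit3b, which share 41.1% of Ifit3 windows, could be divided by the counting.

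The other 4 effectors were not called in either comparison. Ifi30, a lysosomal thiol reductase of antigen processing, had log2 fold changes of 0.30 with dexamethasone plus THSG and 0.28 with dexamethasone. Without dexamethasone plus THSG replicate 3, Ifi30 was called higher with dexamethasone plus THSG, at 0.50 (adjusted p = 0.0308, over a range of 0.0308 to 0.553 in its alternatives). Ifi35, which pairs with Nmi, had -0.06 with dexamethasone plus THSG and -0.16 with dexamethasone. Isg20, an RNA exonuclease, had 0.19 with dexamethasone plus THSG and 0.11 with dexamethasone, and Isg20l2, a nucleolar relative, had -0.13 with dexamethasone plus THSG and -0.12 with dexamethasone.

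The p200 genes encode DNA-binding PYHIN proteins that include cytosolic DNA sensors. Ifi207 measured 13.7, 13.7 and 12.3 FPKM with dexamethasone plus THSG, 14.6, 12.4 and 13.7 FPKM with dexamethasone, and 1.43, 1.07 and 1.904 FPKM with vehicle. The vehicle values were close to 1 FPKM, the lowest level the table lists, and no library of the treated groups was near them. Ifi207 rose to 8.71 times its vehicle level with dexamethasone plus THSG and 8.93 times with dexamethasone, with log2 fold changes against vehicle of 3.12 ± 0.16 with dexamethasone plus THSG (adjusted p = 4.72e-08) and 3.16 ± 0.16 with dexamethasone (adjusted p = 4.05e-08). In the alternatives the log2 fold change of Ifi207 ranged over 2.54 to 3.32 with dexamethasone plus THSG and 2.57 to 3.35 with dexamethasone. Ifi202b measured 29.7, 24.02 and 23.3 FPKM with dexamethasone plus THSG, 26.7, 27.3 and 30.5 FPKM with dexamethasone, and 42.4, 40.1 and 44.6 FPKM with vehicle. Ifi202b fell without overlap, with log2 fold changes against vehicle of -0.73 ± 0.09 with dexamethasone plus THSG (adjusted p = 6.78e-05) and -0.59 ± 0.09 with dexamethasone (adjusted p = 0.000322). The other 3 genes, Ifi203, Ifi204 and Ifi211, were not called. Their fold changes were -0.26 with dexamethasone plus THSG and -0.24 with dexamethasone for Ifi203, 0.05 with dexamethasone plus THSG and 0.06 with dexamethasone for Ifi204 and -0.21 with dexamethasone plus THSG and -0.11 with dexamethasone for Ifi211. Without vehicle replicate 3, Ifi211 was called lower with dexamethasone plus THSG, at -0.33 (adjusted p = 0.0262, over a range of 0.0262 to 0.442). Ifi204 and Ifi211 share 13.2% and 63.6% of their windows with other p200 genes, against 2.8% for Ifi207 and 0% for Ifi202b.

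Of 14 class I genes, 5 were called lower and none higher in each comparison, with 4 of them (H2-K1, H2-M3, H2-Q4, H2-T22) in both. The 5 of 14 compare with 17% of all genes called lower with dexamethasone plus THSG and 20.9% with dexamethasone, and are close to the share called in either direction, 29.1% and 33.6%. H2 genes vary between mouse strains and share sequence, C2C12 derives from C3H mice, and the effect of the reference strain on these levels was not tested. H2-K1, a classical class I heavy chain, measured 28.6, 28.96 and 26.1 FPKM with dexamethasone plus THSG, 27.8, 27.4 and 27.9 FPKM with dexamethasone, and 35.5, 33.4 and 32.8 FPKM with vehicle. The treated libraries were below vehicle with no overlap. H2-K1 fell, with log2 fold changes against vehicle of -0.28 ± 0.05 with dexamethasone plus THSG (adjusted p = 0.00212) and -0.29 ± 0.05 with dexamethasone (adjusted p = 0.00157). H2-D1, the other classical chain, measured 37.2, 34.4 and 33.6 FPKM with dexamethasone plus THSG, 32.6, 33.2 and 32.7 FPKM with dexamethasone, and 44.1, 35.9 and 38.1 FPKM with vehicle. With dexamethasone all libraries lay below vehicle, and with dexamethasone plus THSG they overlapped it. H2-D1 had log2 fold changes against vehicle of -0.16 ± 0.07 with dexamethasone plus THSG (adjusted p = 0.106) and -0.26 ± 0.07 with dexamethasone (adjusted p = 0.0148), and fell in the dexamethasone comparison. Without vehicle replicate 2 the adjusted p for dexamethasone plus THSG was 0.0365.

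H2-M3, which presents formylated peptides, measured 1.39, 1.82 and 1.17 FPKM with dexamethasone plus THSG, 1.63, 1.204 and 1.25 FPKM with dexamethasone, and 3.6, 2.73 and 2.22 FPKM with vehicle. All treated libraries lay below vehicle, and H2-M3 fell, with log2 fold changes against vehicle of -0.91 ± 0.21 with dexamethasone plus THSG (adjusted p = 0.00633) and -0.998 ± 0.21 with dexamethasone (adjusted p = 0.00327). H2-Q4, of the Qa region, measured 4.36, 4.12 and 3.87 FPKM with dexamethasone plus THSG, 3.84, 3.39 and 3.42 FPKM with dexamethasone, and 6.399, 5.17 and 5.76 FPKM with vehicle. It fell without overlap, with log2 fold changes against vehicle of -0.47 ± 0.11 with dexamethasone plus THSG (adjusted p = 0.00579) and -0.68 ± 0.11 with dexamethasone (adjusted p = 0.00045). H2-T22, a ligand of some gamma-delta T cell receptors, measured 12.5, 10.7 and 9.81 FPKM with dexamethasone plus THSG, 11.3, 10.6 and 12.6 FPKM with dexamethasone, and 16.3, 14.7 and 17.1 FPKM with vehicle. Again no treated library reached vehicle. H2-T22 fell, with log2 fold changes against vehicle of -0.54 ± 0.10 with dexamethasone plus THSG (adjusted p = 0.00156) and -0.48 ± 0.10 with dexamethasone (adjusted p = 0.00308), and 18.5% of its windows are shared with other genes, H2-T10 first. H2-T9 measured 2.21, 2.58 and 2.29 FPKM with dexamethasone plus THSG, 2.68, 2.88 and 2.799 FPKM with dexamethasone, and 3.66, 2.78 and 3.23 FPKM with vehicle. Its dexamethasone libraries overlapped vehicle and its dexamethasone plus THSG libraries did not, with log2 fold changes against vehicle of -0.43 ± 0.13 with dexamethasone plus THSG (adjusted p = 0.0244) and -0.20 ± 0.13 with dexamethasone (adjusted p = 0.26). The H2-T9 call was lost without vehicle replicate 1 (0.0983) or 3 (0.0623) or dexamethasone plus THSG replicate 1 (0.0753) or 3 (0.0693), and 52.2% of its windows are shared with other genes.

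B2m, the light chain of every class I molecule and the highest member, measured 398, 358 and 374 FPKM with dexamethasone plus THSG, 369.8, 343 and 411 FPKM with dexamethasone, and 416, 412 and 397 FPKM with vehicle. The groups overlapped, and B2m was not called (-0.12 with dexamethasone plus THSG and -0.13 with dexamethasone). Without dexamethasone replicate 3, B2m was called lower with dexamethasone (adjusted p = 0.0272, over a range of 0.00667 to 0.473 in its alternatives). With all libraries, B2m was also called lower with dexamethasone after removal of GC and length trends, with or without a replicate block. H2-Q1, H2-Q6, H2-Q7, H2-Q10, H2-T11-ps, H2-T13 and H2-T23 were not called in either comparison. Without dexamethasone plus THSG replicate 3, H2-T11-ps was called lower with dexamethasone plus THSG, at -0.32, against -0.17 with all libraries (adjusted p = 0.0432, over a range of 0.0432 to 0.762). Among them H2-T23, the Qa-1 molecule that engages natural killer cell receptors, had the highest level, at a mean of 30.6 ± 1.38 FPKM with dexamethasone plus THSG, 28.7 ± 2.85 FPKM with dexamethasone and 29.5 ± 2.16 FPKM with vehicle (SD, n = 3). Its log2 fold changes were 0.05 with dexamethasone plus THSG and -0.04 with dexamethasone. The summed level of the 14 genes, most of it B2m, was 488 to 534 FPKM with dexamethasone plus THSG, 473 to 541 FPKM with dexamethasone and 546 to 581 FPKM with vehicle. The sums did not overlap vehicle.

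In peptide loading, Tapbp was clearly lower. Tapbp, the tapasin that bridges class I to the peptide transporter, measured 19.9, 21.5 and 20.7 FPKM with dexamethasone plus THSG, 19.8, 19.1 and 19.6 FPKM with dexamethasone, and 35.7, 32.8 and 35.3 FPKM with vehicle. No treated library was near the vehicle range. Tapbp fell to 0.6 times its vehicle level with dexamethasone plus THSG and 0.57 times with dexamethasone, with log2 fold changes against vehicle of -0.74 ± 0.05 with dexamethasone plus THSG (adjusted p = 9.65e-07) and -0.82 ± 0.05 with dexamethasone (adjusted p = 3.81e-07). Tap2, a subunit of that transporter, measured 2.52, 2.497 and 2.803 FPKM with dexamethasone plus THSG, 2.53, 2.19 and 2.06 FPKM with dexamethasone, and 3.44, 2.61 and 2.58 FPKM with vehicle. Tap2 was not called (-0.13 with dexamethasone plus THSG and -0.33 with dexamethasone). Tapbpl, the peptide editor related to tapasin, had -0.23 with dexamethasone plus THSG and -0.29 with dexamethasone and was not called, except in both comparisons without dexamethasone plus THSG replicate 3 (adjusted p = 0.0419 with dexamethasone plus THSG and 0.0478 with dexamethasone, over ranges of 0.0419 to 0.448 and 0.0478 to 0.237). The class II chaperone H2-DMa, at a mean of 1.54 ± 0.32 FPKM with dexamethasone plus THSG, 1.36 ± 0.195 FPKM with dexamethasone and 1.79 ± 0.53 FPKM with vehicle (SD, n = 3), had -0.18 with dexamethasone plus THSG and -0.34 with dexamethasone. Without vehicle replicate 3, H2-DMa was called lower with dexamethasone, at -0.60 (adjusted p = 0.0491, over a range of 0.0491 to 0.629).

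**Figure D3:**
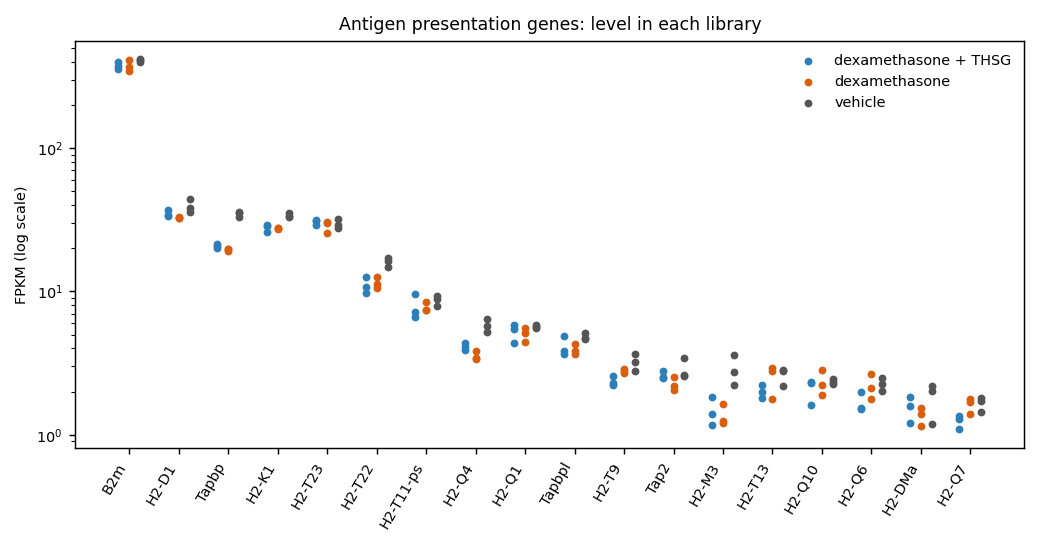
FPKM on a log axis in each library for the class I, peptide-loading and class II members, in falling order of level, with blue for dexamethasone plus THSG, orange for dexamethasone and grey for vehicle. B2m lies near 400 FPKM in all groups, and Tapbp shows the widest gap between vehicle and the treated groups among genes above 10 FPKM.

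**Figure D4:**
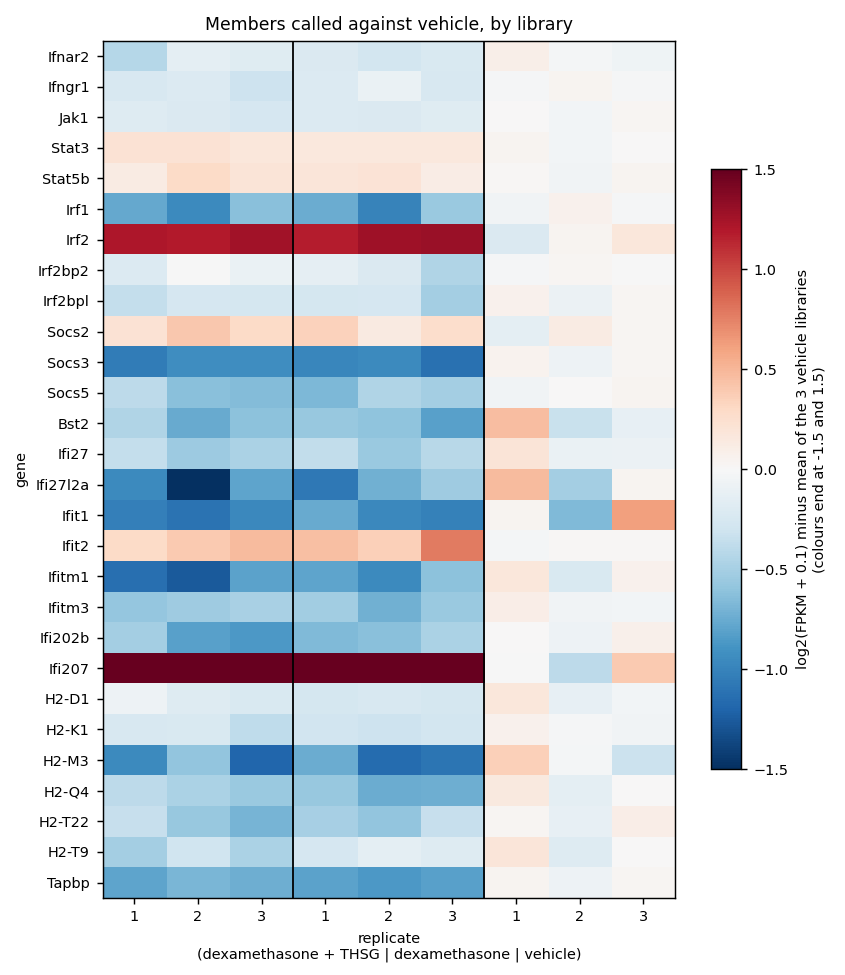
Difference of log2(FPKM + 0.1) from the vehicle mean for 28 of the 29 members called against vehicle in at least 1 comparison, by library, with dexamethasone plus THSG on the left, dexamethasone in the middle and vehicle on the right. Blue is below and red above the vehicle mean, and colours end at 1.5 on either side. The treated libraries of Ifi207 lie beyond the scale, as does Ifi27l2a in dexamethasone plus THSG replicate 2. Vehicle replicate 2 is paler or bluer than its companions for Bst2, Ifi27l2a and Ifit1.

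Adding THSG to dexamethasone left no member past the threshold. Between dexamethasone plus THSG and dexamethasone, 0 of 61 members and 0% of all genes were called. At an unadjusted p under 0.05 there was 1 member (1.64%), against 777 of all genes (7.25%). Groups did not overlap for 8 members (13.1%), against 13.3% of all genes. The median log2 fold change was 0.01 over the members and 0.02 over all genes. The member with the unadjusted p was H2-Q7, a Qa-2 class I gene, which measured 1.09, 1.28 and 1.34 FPKM with dexamethasone plus THSG, 1.41, 1.68 and 1.77 FPKM with dexamethasone, and 1.804, 1.45 and 1.71 FPKM with vehicle. The 3 libraries with THSG were below the 3 with dexamethasone, and the log2 fold change was -0.36 with a 95% interval of -0.71 to -0.01 (adjusted p = 0.683). Part of this level is uncertain, as 17% of the windows of H2-Q7 are shared with other genes.

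Other members without overlap included Stat3, H2-D1, H2-Q4 and Tapbp, which were higher in every library with THSG than in every library with dexamethasone, and Socs4 and H2-T9, which were lower. On the log2 scale the difference for H2-Q4 was 0.21 (adjusted p = 0.706) and for H2-D1 0.09 (adjusted p = 0.802). Tapbp had 0.09 (adjusted p = 0.765), Stat3 0.04 (adjusted p = 0.856), Socs4 -0.06 (adjusted p = 0.866) and H2-T9 -0.23 (adjusted p = 0.72). None of these passed the test. The 95% intervals bound what could be missed: their median distance from estimate to bound was 0.197 on the log2 scale, those of 28 members lay within 0.25 of 0, and those of 49 members lay within 0.5 of 0. The members with larger intervals include Ifit3, Ifi27l2a, Ifit1 and H2-DMa, for which a change of this size cannot be seen or dismissed with 3 libraries a group.

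**Figure D5:**
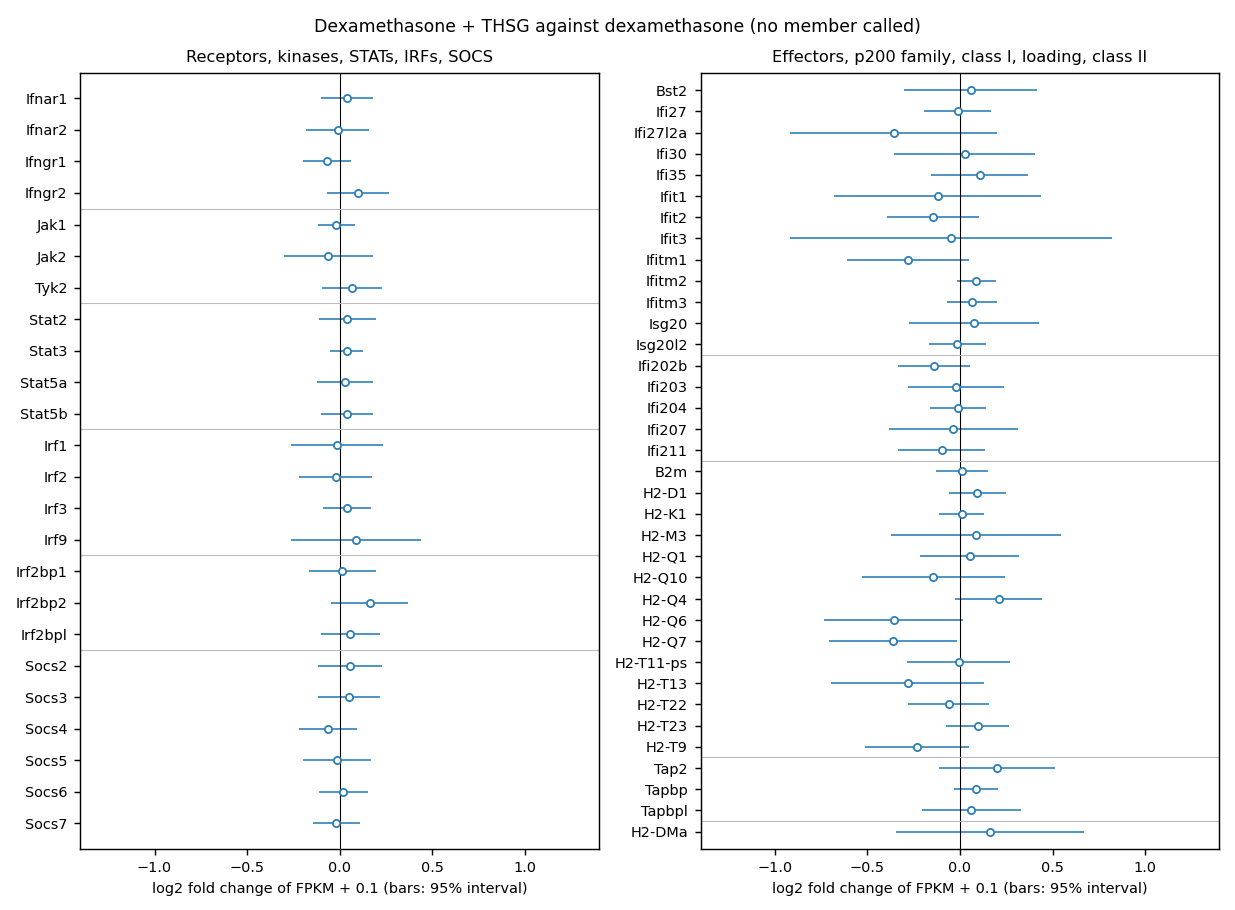
Log2 fold change of FPKM + 0.1 for dexamethasone plus THSG against dexamethasone, with 95% intervals, for 60 of the 61 members by role (limma, n = 3 libraries per group). All symbols are open because no member had an adjusted p under 0.05, and 59 of the 60 intervals drawn include 0.

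Genes of the same pathways that the naming rule does not reach were counted by lists of known members. These lists too were chosen with earlier results of these data known, so their counts are not an independent check. Of 58 listed symbols for interferon-induced effectors and nucleic acid sensors, synonyms included, 35 were in the table. In each comparison with vehicle 19 of the 35 were called lower and 1 higher, with median log2 fold changes of -0.35 with dexamethasone plus THSG and -0.35 with dexamethasone. Over all genes 17% were lower with dexamethasone plus THSG and 20.9% with dexamethasone, with medians of -0.04 and -0.05. Vehicle replicate 2 was the lowest vehicle library for 25 of these 35 genes (71.4%), and without it 18 were called lower and 1 higher with dexamethasone plus THSG, and 19 and 1 with dexamethasone. Of all 10716 genes, 1496 were then lower with dexamethasone plus THSG and 1930 with dexamethasone. Irgm1, an immunity-related GTPase, measured 8.75, 9.03 and 7.98 FPKM with dexamethasone plus THSG, 9.72, 9.81 and 9.897 FPKM with dexamethasone, and 18.8, 17.4 and 17.5 FPKM with vehicle. It fell without overlap, with log2 fold changes against vehicle of -1.05 ± 0.07 with dexamethasone plus THSG (adjusted p = 3.63e-07) and -0.86 ± 0.07 with dexamethasone (adjusted p = 1.88e-06). Samhd1, a deoxynucleotide hydrolase that restricts retroviruses, was the gene called higher and measured 28.7, 26.1 and 29.8 FPKM with dexamethasone plus THSG, 28.8, 27.7 and 29.1 FPKM with dexamethasone, and 15.7, 16.3 and 17.3 FPKM with vehicle. Samhd1 had log2 fold changes against vehicle of 0.78 ± 0.06 with dexamethasone plus THSG (adjusted p = 2.05e-06) and 0.80 ± 0.06 with dexamethasone (adjusted p = 1.60e-06). Sting1, the adaptor of cytosolic DNA sensing, measured 5.91, 5.604 and 6.33 FPKM with dexamethasone plus THSG, 4.98, 6.24 and 4.83 FPKM with dexamethasone, and 10.3, 9.73 and 9.85 FPKM with vehicle. Sting1 fell, with log2 fold changes against vehicle of -0.74 ± 0.10 with dexamethasone plus THSG (adjusted p = 0.000198) and -0.89 ± 0.10 with dexamethasone (adjusted p = 3.89e-05). Lgals3bp, a secreted galectin-binding glycoprotein, had log2 fold changes against vehicle of -0.72 ± 0.12 with dexamethasone plus THSG (adjusted p = 0.000654) and -0.79 ± 0.12 with dexamethasone (adjusted p = 0.000298), and Shisa5, an endoplasmic reticulum protein, had log2 fold changes against vehicle of -0.44 ± 0.09 with dexamethasone plus THSG (adjusted p = 0.00252) and -0.58 ± 0.09 with dexamethasone (adjusted p = 0.000295).

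Of 19 listed genes of antigen processing and class I and class II regulation, 10 were in the table, with 4 called lower and none higher in each comparison, against 29.1% of all genes called in either direction with dexamethasone plus THSG and 33.6% with dexamethasone. Without vehicle replicate 2, 3 were called lower with dexamethasone plus THSG and 2 with dexamethasone, against 1496 and 1930 of all 10716 genes. Calr, the calreticulin of the peptide-loading complex, had means of 274 ± 3.51 FPKM with dexamethasone plus THSG, 268 ± 7.19 FPKM with dexamethasone and 344 ± 9.69 FPKM with vehicle (SD, n = 3). It fell, with log2 fold changes against vehicle of -0.33 ± 0.04 with dexamethasone plus THSG (adjusted p = 7.87e-05) and -0.36 ± 0.04 with dexamethasone (adjusted p = 3.44e-05). Pdia3, the oxidoreductase bound to tapasin in that complex, had means of 111 ± 7.09 FPKM with dexamethasone plus THSG, 114 ± 6.08 FPKM with dexamethasone and 137 ± 7.26 FPKM with vehicle (SD, n = 3), with log2 fold changes against vehicle of -0.30 ± 0.06 with dexamethasone plus THSG (adjusted p = 0.00245) and -0.26 ± 0.06 with dexamethasone (adjusted p = 0.00528). Rfx5, a subunit of the factor that binds class II and class I promoters, had log2 fold changes against vehicle of -0.59 ± 0.19 with dexamethasone plus THSG (adjusted p = 0.0328) and -0.62 ± 0.19 with dexamethasone (adjusted p = 0.0242). The remaining calls were Rfxap, a subunit of the same factor, with dexamethasone (-0.13 with dexamethasone plus THSG and -0.35 with dexamethasone) and Canx, the calnexin chaperone, with dexamethasone plus THSG (-0.17 with dexamethasone plus THSG and -0.09 with dexamethasone).

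Of 21 listed cytokine receptors and ligands that act through JAK kinases, 14 were in the table. With dexamethasone plus THSG 5 were called lower and 1 higher, and with dexamethasone 4 and 1, against 29.1% of all genes called in either direction with dexamethasone plus THSG and 33.6% with dexamethasone. Il6ra, the interleukin 6 receptor chain, was the gene called higher and measured 8.501, 9.96 and 9.63 FPKM with dexamethasone plus THSG, 10.4, 10.5 and 9.27 FPKM with dexamethasone, and 1.37, 2.07 and 2.35 FPKM with vehicle. All treated libraries were at several times the vehicle level, with log2 fold changes against vehicle of 2.25 ± 0.16 with dexamethasone plus THSG (adjusted p = 8.09e-07) and 2.36 ± 0.16 with dexamethasone (adjusted p = 5.35e-07). The vehicle values of Il6ra were near the lowest listed level, so the size of these folds is less certain. Il4ra, the interleukin 4 receptor, measured 7.72, 7.0 and 7.18 FPKM with dexamethasone plus THSG, 7.13, 6.88 and 7.65 FPKM with dexamethasone, and 14.8, 13.4 and 13.5 FPKM with vehicle. Il4ra fell, with log2 fold changes against vehicle of -0.92 ± 0.08 with dexamethasone plus THSG (adjusted p = 3.01e-06) and -0.94 ± 0.08 with dexamethasone (adjusted p = 2.47e-06). Lifr, the receptor of leukemia inhibitory factor, had means of 7.17 ± 0.37 FPKM with dexamethasone plus THSG, 7.36 ± 0.62 FPKM with dexamethasone and 12.9 ± 0.42 FPKM with vehicle (SD, n = 3), with log2 fold changes against vehicle of -0.84 ± 0.08 with dexamethasone plus THSG (adjusted p = 8.93e-06) and -0.81 ± 0.08 with dexamethasone (adjusted p = 1.20e-05). Lif, its ligand, had means of 2.83 ± 0.41 FPKM with dexamethasone plus THSG, 3.01 ± 0.49 FPKM with dexamethasone and 5.73 ± 0.28 FPKM with vehicle (SD, n = 3), with log2 fold changes against vehicle of -1.002 ± 0.14 with dexamethasone plus THSG (adjusted p = 0.000209) and -0.92 ± 0.14 with dexamethasone (adjusted p = 0.000373). Clcf1, another ligand of the family, was also lower in both comparisons, and Il13ra1 with dexamethasone plus THSG. Of 10 other listed regulators of JAK-STAT signalling 8 were in the table, with 2 called with dexamethasone plus THSG (1 without vehicle replicate 1) and 3 with dexamethasone, near those shares. Pias2, a SUMO ligase, and Sh2b3, an adaptor that restrains JAK2, were called lower in both comparisons, and Ptpn1, a phosphatase, with dexamethasone. Sh2b3 had log2 fold changes against vehicle of -0.35 ± 0.09 with dexamethasone plus THSG (adjusted p = 0.0121) and -0.55 ± 0.09 with dexamethasone (adjusted p = 0.000645), and Pias2 had log2 fold changes against vehicle of -0.33 ± 0.06 with dexamethasone plus THSG (adjusted p = 0.00132) and -0.32 ± 0.06 with dexamethasone (adjusted p = 0.00163). For Ptpn1 the log2 fold changes were -0.14 with dexamethasone plus THSG and -0.16 with dexamethasone.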

How the data were processed

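RNA sequencing values for 9 libraries (3 per group) were read from the deposited table of 10716 genes. The name of that table calls its values counts, but they are fractional and no unit is stated. They were taken to be FPKM made by the authors before deposit. Per the submitters' processing notes, reads were processed with STAR 2.7.10a and featureCounts on GRCm39 (mm39), in roles the notes do not give. Per the labels' protocols, RNA was isolated with a Hybrid-R kit and libraries were prepared with a stranded TruSeq mRNA kit. The strand setting, the transcript lengths and the filter that removed low values are not given in the sources used here. No step that would turn low values into whole reads was found, so reads were not recovered and precision rests on the spread between replicates. Sample titles name C2C12 throughout while the cell line field counts upward, and the titles were followed.

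The package limma 3.58.1 (R 4.3.3) was applied to log2(FPKM + 0.1). Models had 1 mean per group over all 9 libraries, an intensity trend, two-sided tests and Benjamini-Hochberg adjustment over 10716 genes at 0.05. Intervals are 95% intervals of these models. A count model was not used, since the values are fractional. The fit was tested on simulated data.

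Per-library values are given for members called against vehicle and for a set of core pathway genes; other members are given by fold change, and from each list outside the rule the called genes with the smallest p (up to 4) were named. Clcf1, Il13ra1, Rfxap, Canx and Ptpn1 were named to complete counts, after their values were seen. The values of 1 member are not reported here, and it is in the counts over members but not in the plots. The members and the lists were chosen with earlier results of these data known. Sequence sharing was counted over 75-base windows of GENCODE M21 transcripts (GRCm38), and promoters were RefSeq sequences of GRCm38.p6, builds other than the authors' own. The alternatives set the pseudocount to 0 or 1, scaled libraries by median ratios, to equal sums or by quantiles, required a mean of 5 FPKM, dropped the intensity trend, fitted the compared groups alone, or added a replicate block. Others were the removal of trends over GC content and transcript length (splines with 4 degrees of freedom), both of these together, and leaving out each library in turn.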

Additional observations from a re-analysis of the deposited data

How the results depend on the processing

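Over 20 alternatives, 21 of the 27 members called with dexamethasone plus THSG against vehicle were called in every alternative in which they were tested, as were 21 of the 27 called with dexamethasone, and no called member changed sign. The calls lost in some were Ifnar2, Stat5b, Socs2, Bst2, Ifit2 and H2-T9 with dexamethasone plus THSG, and Ifnar2, Ifngr1, Irf2bp2, Socs2, Ifi27l2a and Ifit1 with dexamethasone. Of the members not called, 10 gained a call in some alternative with dexamethasone plus THSG (Jak2, Ifi30, Ifit3, Isg20l2, Ifi203, Ifi211, H2-D1, H2-Q7, H2-T11-ps and Tapbpl) and 11 with dexamethasone (Ifngr2, Jak2, Stat5b, Irf9, Irf2bp1, Socs4, Ifit3, Ifi203, B2m, Tapbpl and H2-DMa). The count of members called higher with dexamethasone plus THSG ranged over 3 to 6 when 1 library was left out, at 3 without dexamethasone plus THSG replicate 2. Between dexamethasone plus THSG and dexamethasone the count of all genes called higher ranged over 0 to 1 when 1 library was left out (Cks2, without dexamethasone replicate 3) and was 0 with all libraries; the cause was not tested.

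The replicate block gave 1 gene called higher in that comparison, a ribosomal pseudogene (Rps2-ps10), and the replicate block with GC and length correction gave 1, the same gene; no member was called. Pairing by replicate number was not seen in the values, though weak correlations cannot exclude a paired design. Deviations of same-numbered libraries correlated at -0.0862 to 0.107, and 0 of 9 libraries correlated best with their own number in both other groups. Under the block, 20 members were called lower and 5 higher with dexamethasone plus THSG, and 20 and 5 with dexamethasone. Of all 10716 genes, 1755 were then lower and 1248 higher with dexamethasone plus THSG, and 2212 and 1306 with dexamethasone.

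Depth is unknown, so precision for members near 1 FPKM, such as Ifit1, H2-M3 and H2-Q7, is known only from 3 libraries a group.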

Other observations

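Immunity-related GTPases defend against vacuolar pathogens. Between dexamethasone plus THSG and dexamethasone, 3 of the listed genes of this family gave the following values, chosen after they were seen. Irgm1 had a log2 fold change of -0.19 (unadjusted p = 0.0167, adjusted p = 0.594), Irgm2 had -0.56 (unadjusted p = 0.0197, adjusted p = 0.628) and Igtp had -0.18 (unadjusted p = 0.329, adjusted p = 0.847). None of them passed the test.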
